A study of Mus musculus with 12 samples.

Results

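The 10 genes described here, which glucocorticoids are known to switch on, were followed on 12 arrays of mouse lung. They are Tsc22d3, Klf9, Zbtb16, Per1, Fkbp5, Sgk1, Errfi1, Fam107a, Mt1 and Mt2, which makes 10 of the 11606 genes tested. The set was proposed with results of these arrays known, and its genes were selected on their values in radiation minus control, so that comparison is described below without a test. Each gene is represented by the probe set (a group of short probes for a transcript) with the highest mean over the 12 arrays, out of 27 probe sets that the platform annotation assigns to these genes. All 10 genes passed the filter on dim probe sets, a log2 level over 4.84 on at least 3 arrays. Their lowest value, 6.27 for Zbtb16 on an array labelled control, lay above that level as well.

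The study compared wild-type mice in 4 groups of 3 arrays. Animals of the combined group had both treatments, those of the radiation group had a single dose of 25 Gy with lungs taken 6 weeks later, those of the simvastatin group had 10 mg/kg of the cholesterol-lowering drug by intraperitoneal injection 3 times a week, and controls had vehicle. The drug was given before and after irradiation for up to 6 weeks, wording that the simvastatin group carries too although its label names no dose of radiation. One description, naming lung of a control animal, is shared by all 12 arrays, so groups were taken from the titles and treatments. Treated animals were 8 to 12 weeks old and controls 8 to 10 weeks, so age cannot be told apart from treatment in any comparison with controls. The labels give neither the sex of an animal nor the hour at which lungs were taken, and they do not say whether the arrays of a group are separate animals. The p-values therefore measure the spread between these samples, which may be technical.

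Glucocorticoids (corticosterone in mice) bind the glucocorticoid receptor, which is held ready in the cytoplasm by heat shock protein chaperones, moves to the nucleus, and binds paired copies of the half-site AGAACA. Blood corticosterone rises and falls daily and rises with stress, and in lung the receptor dampens inflammation and acts in fibroblasts, endothelium and epithelium. The genes differ in other inputs: Per1 also belongs to the circadian clock, and Mt1 and Mt2 also answer to zinc and other metals through the factor Mtf1. In whole lung, fewer cells of a type and less RNA per cell cannot be told apart.

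The RefSeq promoter table (build GRCm38.p6, 250 bases before to 50 after an annotated start) held 20 promoters for 9 of the genes and none for Zbtb16. The half-site AGAACA, read on both strands, was found in 6 of these 20 promoters, belonging to Tsc22d3, Fam107a and Sgk1, while 19% of all 32851 promoters hold it. The full inverted repeat (AGAACA, 3 bases, TGTTCT) occurred in 3 of all 32851 promoters, and 1 of these 3 is a promoter of Sgk1, where it begins 189 bases before the start. The promoters of Sgk1 (chr10:21993640-21993939, plus strand) and Fam107a (chr14:8309728-8310027, minus strand) are shown because they hold 3 and 2 half-sites, which are in capitals, and no other promoter of the 10 genes holds more than 1 except an overlapping one of Fam107a.
Sgk1: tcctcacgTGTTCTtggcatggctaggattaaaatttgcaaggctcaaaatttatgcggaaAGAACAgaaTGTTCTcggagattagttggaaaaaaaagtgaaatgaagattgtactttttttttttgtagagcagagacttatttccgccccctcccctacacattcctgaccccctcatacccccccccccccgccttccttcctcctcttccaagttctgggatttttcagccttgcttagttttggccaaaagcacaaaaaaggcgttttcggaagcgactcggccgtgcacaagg
Fam107a: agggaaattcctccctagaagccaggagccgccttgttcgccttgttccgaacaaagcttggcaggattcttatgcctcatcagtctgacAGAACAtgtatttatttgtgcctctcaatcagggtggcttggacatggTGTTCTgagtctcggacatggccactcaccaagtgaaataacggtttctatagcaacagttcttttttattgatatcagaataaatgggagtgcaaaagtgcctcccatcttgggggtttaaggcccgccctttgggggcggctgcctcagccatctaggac
The metal elements TGCACNC and TGCGCNC, on both strands, gave 3 matches in the Mt1 promoter (chr8:94178839-94179138, plus strand) and 4 in that of Mt2 (chr8:94172368-94172667, plus strand), where they are in capitals. Either element was found in 6 of the 20 promoters, which belong to 5 genes, Fam107a, Sgk1 and Per1 besides Mt1 and Mt2, and in 25.7% of all promoters.
Mt1: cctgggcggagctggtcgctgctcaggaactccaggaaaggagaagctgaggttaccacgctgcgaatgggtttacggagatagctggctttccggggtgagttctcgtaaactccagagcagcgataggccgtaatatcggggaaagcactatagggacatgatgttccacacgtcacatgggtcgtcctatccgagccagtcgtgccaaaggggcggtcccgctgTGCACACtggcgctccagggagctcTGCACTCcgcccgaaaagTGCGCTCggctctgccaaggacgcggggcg
Mt2: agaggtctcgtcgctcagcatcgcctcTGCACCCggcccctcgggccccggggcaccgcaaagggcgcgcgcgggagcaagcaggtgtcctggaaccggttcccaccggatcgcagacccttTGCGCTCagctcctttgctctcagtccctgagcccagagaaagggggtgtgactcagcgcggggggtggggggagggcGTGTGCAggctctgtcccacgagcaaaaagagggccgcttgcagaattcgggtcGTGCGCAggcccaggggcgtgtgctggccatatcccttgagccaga
The half-site was found in neither of these 2 windows. The clock element CACGTG, an E-box held by 7.15% of all promoters, was present in 1 promoter each of Per1, Fkbp5 and Sgk1, where it overlaps the outermost half-site by 2 bases. A match says only that the letters are there, and the arrays do not measure binding.

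Some arrays stood apart from the others of their label. The arrays simvastatin 1, simvastatin 3 and combined 3 were near-identical: the SD of log2 differences between them was 0.111 to 0.118 over 10342 bright probe sets, against 0.336 to 1.02 in the 63 other pairs. Simvastatin 1 and 3 were averaged and counted as 1 sample, which left 11 samples and 7 residual degrees of freedom. Combined 3 was kept as a separate sample under its own label. It lay as close to simvastatin 1 and 3 (0.111 and 0.114) as they did to each other (0.118). Whether the 3 arrays come from 1 RNA is not known. If they do, there are fewer independent samples, and combined minus simvastatin holds that RNA on both sides, which brings these groups closer. Cdkn1a, a p53 target that radiation is known to raise, had log2 levels of 13.19, 13.17 and 11.18 on combined 1, 2 and 3, 13.36, 13.12 and 13.42 on the radiation arrays, 11.09, 13.36 and 11.11 on simvastatin 1, 2 and 3, and 10.25, 10.69 and 13.01 on control 1, 2 and 3. In that gene combined 3, simvastatin 2 and control 3 lay away from the other arrays of their label, and values without one or all of these 3 arrays are given beside the results they move most. Xist, made from the inactive X of females, was at 2.45 on control 3 and 2.50 on radiation 1 and between 12.29 and 14.54 on the other 10 arrays. Sftpc, the alveolar type 2 surfactant gene, and the endothelial cadherin gene Cdh5 had log2 levels of 15.57 to 15.84 and 10.24 to 12.23, in that order, on the 12 arrays.

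In radiation minus control, the comparison behind the choice, all 10 genes were above 0, with a median log2 difference of 1.29 against 0.08 over all genes. All 3 radiation arrays lay above all 3 control arrays for 7 of the 10 genes (Tsc22d3, Klf9, Sgk1, Errfi1, Fam107a, Mt1 and Mt2), a pattern that 4.86% of all genes show, and for 0 of them below, against 2.03% of all genes. The choice of genes sets these counts. No gene of 11606 passed limma's adjusted threshold of 0.05 in this comparison (0%), and 600 genes had an unadjusted p under 0.05. Single control arrays bore on several values. Without control 3, Zbtb16 was at 4.65 (3.18 with it) and Fam107a at 4.40 (3.56 with it). Without control 1, Zbtb16 was at 2.03, Klf9 at 0.38 (0.58 with it), Per1 at 0.80 (1.34 with it) and Fkbp5 at 2.47 (1.48 with it). Without control 2, Per1 was at 2.04 and Fkbp5 at 0.49.

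**Figure D1:**
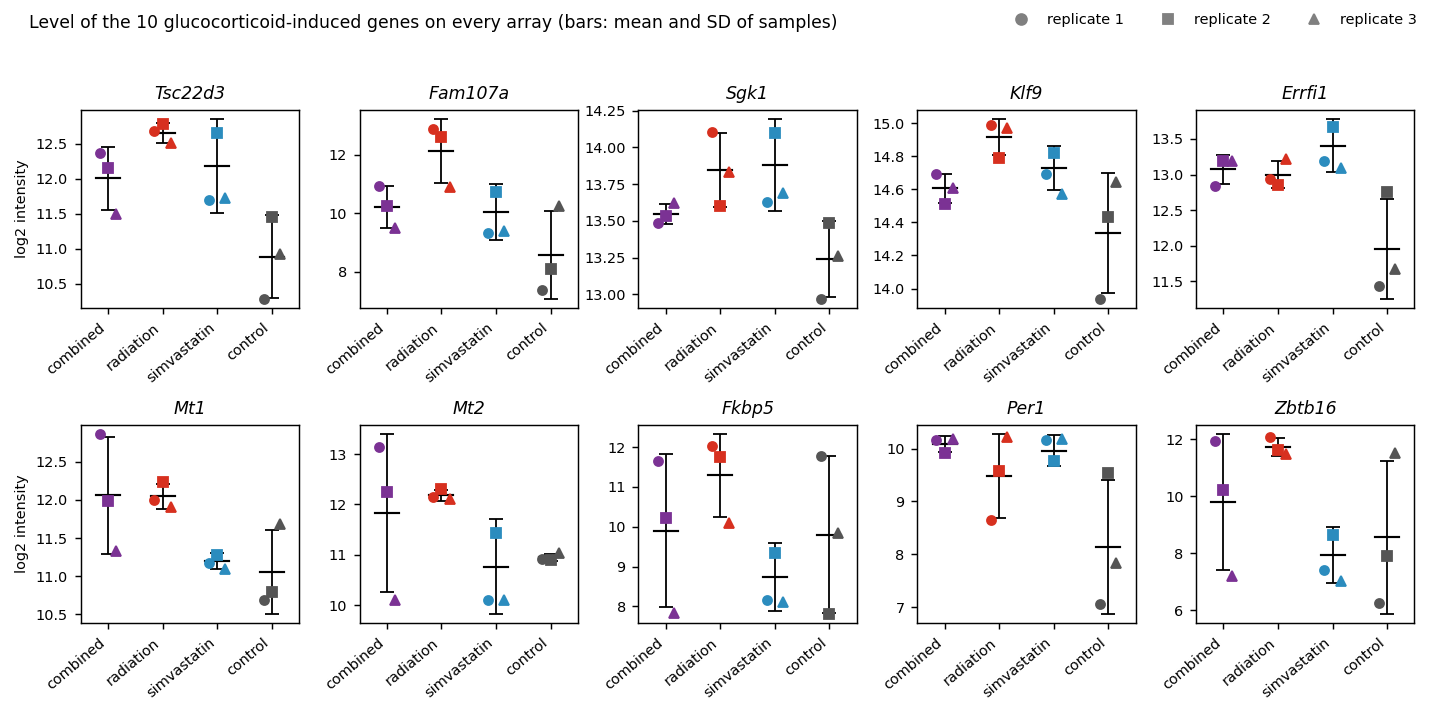
Log2 intensity (vertical axis) of the 10 genes on each of 12 arrays, by group, with the replicate number as the marker and the mean and SD of samples as bars (simvastatin 1 and 3 count as 1 sample). The radiation arrays of Tsc22d3 lie at 12.50 to 12.77, above its control arrays at 10.29 to 11.45, while the arrays of Zbtb16 labelled combined spread over 7.21 to 11.92.

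Tsc22d3 encodes the leucine zipper protein GILZ, which restrains NF-kappaB and AP-1. Its log2 levels were 12.36, 12.15 and 11.50 on the combined arrays, 12.68, 12.77 and 12.50 on the radiation arrays, 11.69, 12.65 and 11.72 on the simvastatin arrays, and 10.29, 11.45 and 10.93 on the control arrays. The 3 control arrays were the lowest and no other group overlapped with them. Klf9, a zinc finger transcription factor of many tissues, had 14.69, 14.51 and 14.61 on the combined arrays, 14.99, 14.79 and 14.97 on the radiation arrays, 14.69, 14.82 and 14.57 on the simvastatin arrays, and 13.94, 14.43 and 14.64 on the control arrays. All of its values lay within 1.05 log2 units, the narrowest range of the 10 genes.

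Zbtb16 encodes the transcriptional repressor PLZF, whose RNA answers sharply to glucocorticoids in several cell types. Its levels were 11.92, 10.22 and 7.21 on the combined arrays, 12.08, 11.62 and 11.48 on the radiation arrays, 7.43, 8.63 and 7.03 on the simvastatin arrays, and 6.27, 7.89 and 11.50 on the control arrays. This was the widest range of the 10 genes, 5.82 log2 units, and control 3 reached the level of the radiation arrays. Per1, a repressor of the circadian clock, had 10.16, 9.92 and 10.18 on the combined arrays, 8.65, 9.58 and 10.22 on the radiation arrays, 10.16, 9.76 and 10.18 on the simvastatin arrays, and 7.05, 9.53 and 7.83 on the control arrays. Its combined and simvastatin arrays shared a narrow band, while its radiation and control arrays overlapped.

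Fkbp5 encodes a co-chaperone that lowers the hormone affinity of the glucocorticoid receptor, which closes a feedback loop. Its levels were 11.65, 10.22 and 7.84 on the combined arrays, 12.01, 11.75 and 10.10 on the radiation arrays, 8.16, 9.35 and 8.12 on the simvastatin arrays, and 11.77, 7.81 and 9.83 on the control arrays. Control 1 was as high as the radiation arrays, so the groups overlapped widely. On the same array the 2 measured thymocyte markers of 7 listed, Cd8a and Cd8b1, averaged 12.77, against 4.35 to 9.01 on the other 11 arrays. T and NK cell markers (6 of 8 measured) were also highest there, at 10.94. Rag1, Rag2, Dntt, Ptcra and Cd4 of the thymocyte list did not pass the filter, which drops a gene that is high on a single array. Thymocytes and other T cells cannot be told apart by these markers, and their part in the Fkbp5 value was not tested.

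Sgk1 is a kinase that raises sodium transport through epithelial channels. It had 13.49, 13.54 and 13.62 on the combined arrays, 14.10, 13.60 and 13.84 on the radiation arrays, 13.63, 14.10 and 13.69 on the simvastatin arrays, and 12.97, 13.49 and 13.26 on the control arrays. Every combined array lay above every control array, control 2 by very little. Every combined array also lay below every simvastatin array, but combined 3 at 13.62 was close to its near-identical array simvastatin 1 at 13.63. Errfi1, which encodes an inhibitor of the EGF receptor, had 12.84, 13.20 and 13.19 on the combined arrays, 12.93, 12.85 and 13.21 on the radiation arrays, 13.19, 13.67 and 13.09 on the simvastatin arrays, and 11.43, 12.76 and 11.68 on the control arrays. All 9 treated arrays were above all 3 control arrays. Fam107a, an actin-binding gene induced by stress hormones, had 10.94, 10.25 and 9.50 on the combined arrays, 12.90, 12.60 and 10.89 on the radiation arrays, 9.31, 10.74 and 9.40 on the simvastatin arrays, and 7.37, 8.08 and 10.25 on the control arrays. Its difference in radiation minus control, the comparison behind the choice of genes, was 3.56 ± 0.79 (SE), the largest positive difference of all 11606 genes.

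Metallothioneins are small proteins that bind zinc and copper. Mt1 had 12.86, 11.98 and 11.33 on the combined arrays, 12.01, 12.23 and 11.91 on the radiation arrays, 11.17, 11.28 and 11.09 on the simvastatin arrays, and 10.69, 10.79 and 11.69 on the control arrays. Its combined arrays all lay above its simvastatin arrays, and combined 3 was the lowest of them. Mt2 had 13.14, 12.26 and 10.11 on the combined arrays, 12.15, 12.30 and 12.10 on the radiation arrays, 10.10, 11.43 and 10.11 on the simvastatin arrays, and 10.92, 10.90 and 11.03 on the control arrays. For Mt2 the radiation arrays and the control arrays each lay close together, with a difference of 1.23 ± 0.64 (SE), while combined 3 fell among the simvastatin arrays. The Mt1 probe set carries a suffix that marks probes shared between transcripts, so another transcript may add to its value.

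The order of the 4 group means was not the same for all genes. Radiation was highest for 6 of them (Tsc22d3, Klf9, Zbtb16, Fkbp5, Fam107a and Mt2), the combined group for Mt1 and Per1, and simvastatin for Sgk1 and Errfi1. Controls were lowest for 7 genes and simvastatin for Zbtb16, Fkbp5 and Mt2. Neighbours in these orders mostly lay within their spread: for Mt1 the combined mean was 12.06 ± 0.77 (SD, n = 3) and the radiation mean 12.05 ± 0.17 (SD, n = 3), and for Fkbp5 the combined mean was 9.90 ± 1.92 (SD, n = 3) and the control mean 9.80 ± 1.98 (SD, n = 3).

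Combined minus simvastatin asks for the effect of radiation in drug-treated mice. The 10 genes were selected on their values in radiation minus control and not in this comparison, so they were tested here. The set and the tests were nonetheless chosen with earlier results of these data known, and probe sets by their mean over all arrays. The test in combined minus simvastatin is therefore not fully independent of the choice. No gene of 11606 passed (0%), none of the 10 passed, and limma's adjusted p was 1 for each of them. Of all genes 153 had an unadjusted p under 0.05, and 0 of the 10 did. The 10 genes had a median log2 difference of 0.15, against -0.0046 over all genes, with 6 above 0. Of the 10 genes 1, Mt1, had all combined arrays above all simvastatin arrays (5.01% of all genes do), and 1 gene, Sgk1, had them all below (4.68% of all genes do). Both margins were small. Mt1 was at 11.33 on combined 3 and 11.28 on simvastatin 2, and Sgk1 at 13.62 on combined 3 and 13.63 on simvastatin 1.

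The largest differences in this comparison belonged to Zbtb16 at 1.86 ± 1.54 (SE), Fkbp5 at 1.16 ± 1.26, Mt2 at 1.06 ± 0.72 and Mt1 at 0.86 ± 0.42. Mt1 had the lowest unadjusted limma p of the 10, 0.0682. The genes below 0 were Sgk1 at -0.33 ± 0.20, Errfi1 at -0.33 ± 0.35, Tsc22d3 at -0.18 ± 0.39 and Klf9 at -0.12 ± 0.18, and Fam107a at 0.18 ± 0.89 and Per1 at 0.12 ± 0.65 stayed near 0. With errors of this size, a p over the threshold does not show that the groups were alike. Combined 1 was the array these values leaned on most: without it, they were 0.79 for Zbtb16, 0.29 for Fkbp5, 0.41 for Mt2 and 0.45 for Mt1, with a limma adjusted p of 1 for each, and the median of the 10 genes was -0.04. Without simvastatin 2 that median was 0.58.

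Combined 3, near-identical to 2 simvastatin arrays, bore on 4 of these values. Without it, the difference was 3.14 for Zbtb16, 2.19 for Fkbp5, 1.93 for Mt2 and 1.22 for Mt1, with limma adjusted p-values of 1, 1, 0.393 and 0.658. Without combined 3, simvastatin 2 and control 3 together, which leaves 1 simvastatin sample with no spread of its own, they were 3.84, 2.79, 2.59 and 1.29. Fam107a was then at 1.24 and Tsc22d3 at 0.55, and the median of the 10 genes was 0.89. Sgk1, Klf9, Errfi1 and Per1 lay between -0.15 and -0.03 in that setting. These 3 arrays were singled out by Cdkn1a, a gene that radiation is known to raise. The mean of the 10 genes was also lowest of its group on combined 3, and highest of their groups on simvastatin 2 and control 3. Leaving arrays out on such grounds tends to widen these differences beforehand, so the values are a description. Markers of other tissues also set combined 3 apart from combined 1 and 2. Skeletal muscle markers (9 of 10 measured) had mean log2 levels of 12.45, 12.07 and 4.36 on combined 1, 2 and 3, against 4.51, 3.86 and 4.42 on simvastatin 1, 2 and 3. Brown fat markers (5 of 7) averaged 10.93, 9.95 and 5.80 on these combined arrays, against 5.96, 5.60 and 5.86 on the simvastatin arrays. Adipose tissue markers (5 of 8) averaged 12.48, 12.45 and 10.88 on the combined arrays, against 10.78, 8.73 and 10.81 on the simvastatin arrays. The radiation and control arrays varied in these markers too. Skeletal muscle markers averaged 11.45, 9.87 and 4.13 on radiation 1, 2 and 3, against 11.73, 11.48 and 9.99 on control 1, 2 and 3. Brown fat markers averaged 6.27, 8.27 and 5.91 on the radiation arrays and 10.60, 5.22 and 10.31 on the control arrays. Adipose tissue markers averaged 9.88, 9.88 and 9.79 on the radiation arrays and 12.54, 6.31 and 11.29 on the control arrays. The part of these tissues in the values of the 10 genes was not tested.

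**Figure D2:**
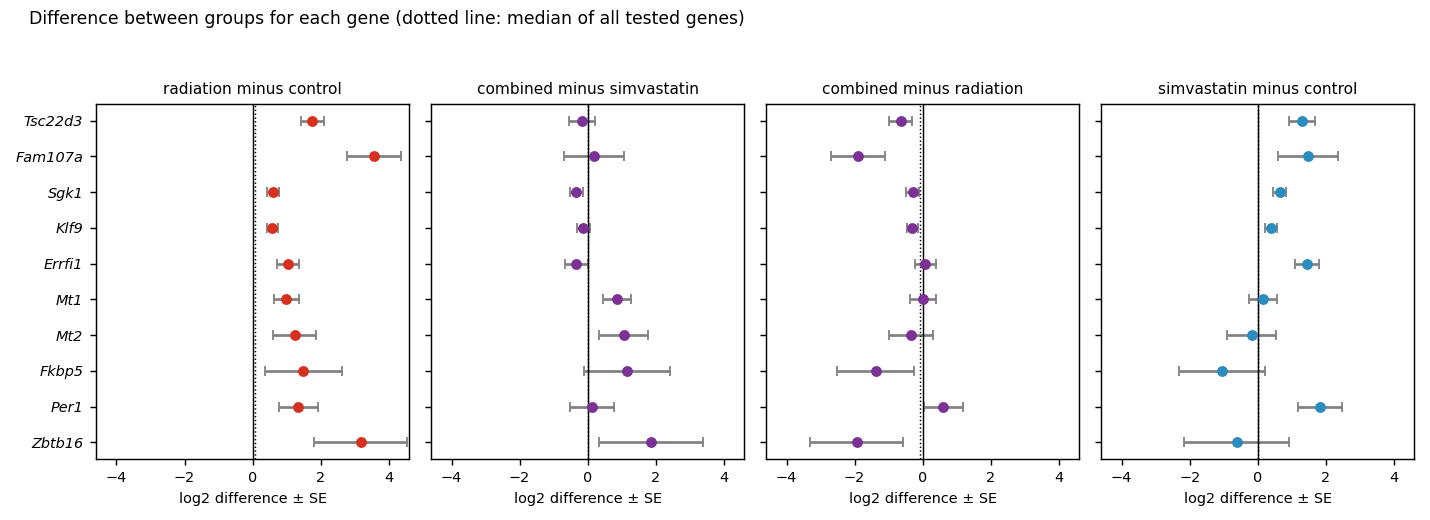
Log2 difference ± SE (horizontal axis) of the 10 genes in 4 comparisons, from limma on 11 samples, with the median of all tested genes as a dotted line. All 10 genes lie above 0 in radiation minus control, which was used to choose them, whereas 6 do in combined minus simvastatin, where the median is 0.15.

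Combined minus radiation and simvastatin minus control share the radiation and control arrays with the comparison that chose the genes, so their values are set side by side and not tested for these genes. In combined minus radiation, no gene of 11606 passed in limma (0%) and 518 had an unadjusted p under 0.05, and the 10 genes had a median of -0.33, against -0.09 over all genes, with 3 above 0. Zbtb16 was at -1.94 ± 1.37 (SE), Fam107a at -1.90 ± 0.79 and Fkbp5 at -1.39 ± 1.13, while Per1 was at 0.60 ± 0.58. All combined arrays lay below all radiation arrays for Tsc22d3 and Klf9, 2 of the 10, a pattern that 13.5% of all genes show, and they lay above for 0 genes of the 10, against 3.7% of all genes. Without combined 3, Zbtb16 was at -0.66, Fkbp5 at -0.36 and Mt2 at 0.51.

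In simvastatin minus control, no gene of 11606 passed in limma (0%) and 214 had an unadjusted p under 0.05, and the 10 genes had a median of 0.52, against -0.0023 over all genes, with 7 above 0. Of the 10 genes 4 had all simvastatin arrays above all control arrays, against 2.82% of all genes, and 0 had them all below, against 6.38% of all genes. These 4 were Per1 at 1.82 ± 0.65 (SE), Errfi1 at 1.45 ± 0.35, Tsc22d3 at 1.29 ± 0.39 and Sgk1 at 0.64 ± 0.20. Fkbp5 at -1.06 ± 1.26, Zbtb16 at -0.62 ± 1.54 and Mt2 at -0.18 ± 0.72 lay below 0. Without control 3, Zbtb16 was at 0.85 and Fam107a at 2.32 (1.48 with it), and without control 1, Fkbp5 was at -0.08. Without simvastatin 2, Tsc22d3 was at 0.82, Sgk1 at 0.42, Fam107a at 0.79, Mt2 at -0.84, Fkbp5 at -1.66 and Zbtb16 at -1.32, and the median of the 10 genes was 0.36.

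The 10 genes were also summarised on each array as the mean of their deviations from their own means over 11 samples. This mean deviation was 0.86, 0.28 and -0.63 on combined 1, 2 and 3, 0.91, 0.87 and 0.58 on the radiation arrays, -0.59, 0.10 and -0.64 on simvastatin 1, 2 and 3, and -1.27, -0.83 and -0.27 on control 1, 2 and 3. The 3 radiation arrays and combined 1 held the 4 highest values, and control 1 and control 2 the 2 lowest. Control 3 and simvastatin 2 were the highest of their groups and combined 3 the lowest of its group, the same 3 arrays that lay apart in Cdkn1a. On control 3, however, only 3 genes of 10 exceeded their own mean, with Zbtb16 at 1.86 and Per1 at -1.54 log2 units from it.

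**Figure D3:**
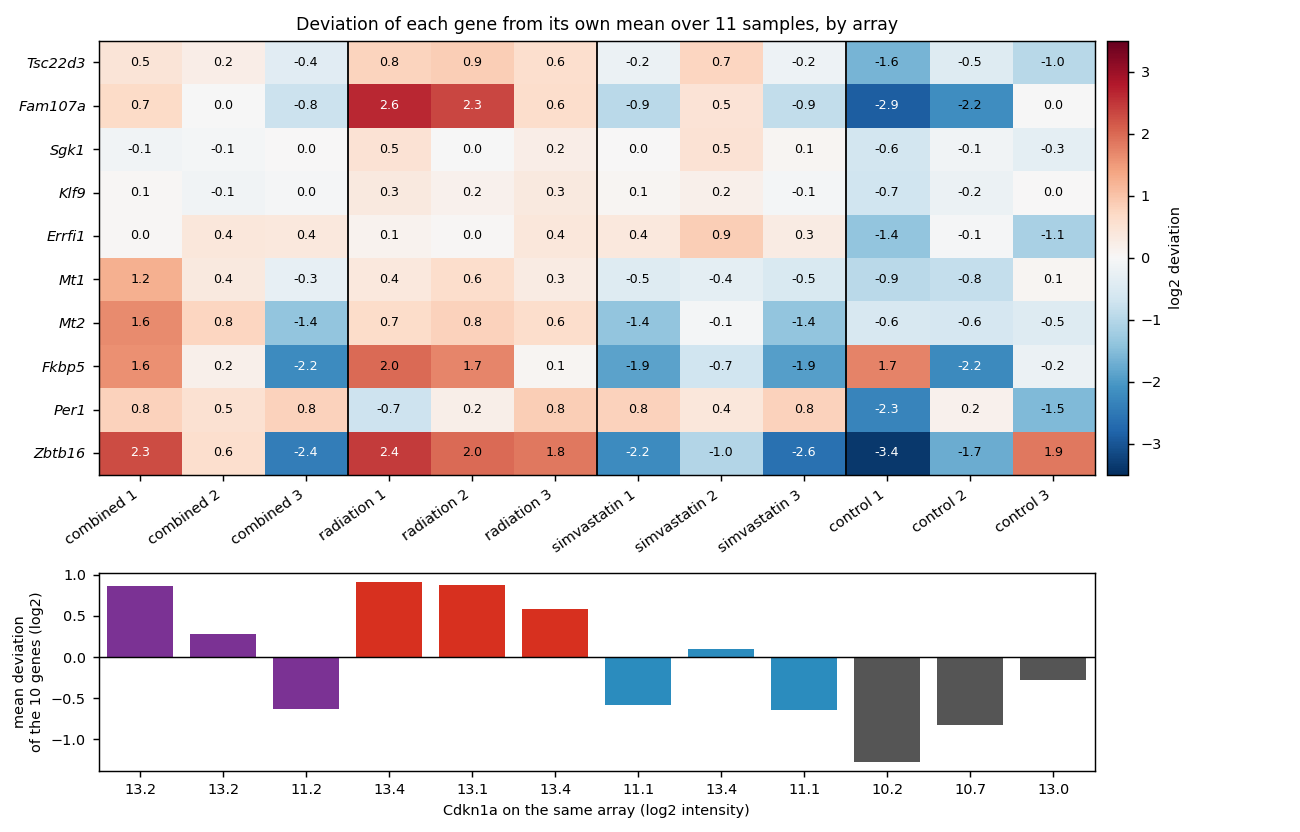
Deviation of each gene from its own mean over 11 samples (colour and number, log2) on each of 12 arrays, and below it the mean of the 10 genes (bars, log2) above the Cdkn1a level of the same array. The mean is 0.91, 0.87 and 0.58 on the radiation arrays, against -1.27, -0.83 and -0.27 on the control arrays, and combined 3 at -0.63 is close to simvastatin 1 and 3 at -0.59 and -0.64.

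Correlations between the genes varied widely. Over 11 samples, Pearson's r between 2 of the genes ranged from -0.42 to 0.88 in 45 pairs, with a median of 0.59 and 42 pairs above 0. These values include the arrays that chose the genes, and they are given as a description. The highest were 0.88 for Errfi1 with Per1, 0.87 for Mt1 with Zbtb16, 0.85 for Fam107a with Klf9, and 0.84 each for Sgk1 with Klf9, Tsc22d3 with Klf9 and Mt1 with Mt2. The lowest were -0.42 for Fkbp5 with Per1 and -0.34 for Fkbp5 with Errfi1. Against the mean of the other 9 genes, Fam107a and Mt1 had the highest r, 0.89 and 0.88, and Per1, Errfi1 and Fkbp5 the lowest, 0.25, 0.37 and 0.38.

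**Figure D4:**
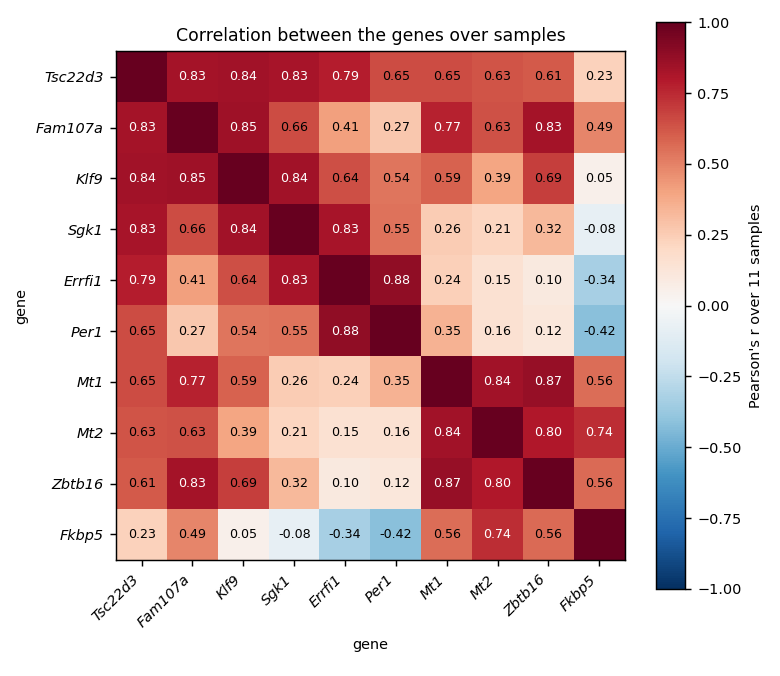
Pearson's r (colour and number) between each pair of the 10 genes over 11 samples. Values are 0.83 to 0.84 among Tsc22d3, Klf9 and Sgk1 and 0.80 to 0.87 among Mt1, Mt2 and Zbtb16. These sets are not separate, since Fam107a has 0.85 with Klf9 and 0.83 with Zbtb16. Errfi1 has 0.88 with Per1 and 0.64 with Klf9, and Fkbp5 reaches -0.42 with Per1.

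Other probe sets gave a check on the chosen ones within the same arrays. Of the 27 probe sets 21 passed the filter, and 11 of these were not the chosen ones. In radiation minus control all 11 had the sign of the chosen probe set of their gene, and in combined minus simvastatin 5 of 11 did. Klf9 accounts for 5 of the 6 that differed, since its 5 other kept probe sets lay between 0.01 and 0.52 and the chosen one at -0.12. The other Zbtb16 probe sets, at 0.92 and 1.37, and the other Fkbp5 probe set, at 1.32, lay on the same side as the chosen ones.

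Nr3c1, the glucocorticoid receptor gene, lay between 11.99 and 12.76 on all 12 arrays, with a difference of -0.05 ± 0.23 (SE) in combined minus simvastatin and -0.18 ± 0.20 in radiation minus control. Nr3c2, the mineralocorticoid receptor gene, was at -0.04 ± 0.45 and 0.43 ± 0.40 in these comparisons. Hsd11b1, which regenerates active hormone inside cells, was at -0.29 ± 0.39 and 0.17 ± 0.35, and Hsd11b2, which inactivates it, did not pass the filter. Of 12 receptor and steroid handling genes listed, 8 were measured. In combined minus simvastatin 0 of them passed, and 4 lay above and 4 below 0, with the co-chaperone gene Fkbp4 highest at 0.30 ± 0.17, followed by Stip1 at 0.28 ± 0.34.

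All 22 of another 22 glucocorticoid-induced genes listed were measured, and 0 of them passed in any comparison. In combined minus simvastatin 10 lay above and 12 below 0, with a median of -0.08. Pdk4, a brake on glucose oxidation, was highest at 1.57 ± 0.95 (SE), followed by the decoy receptor gene Il1r2 at 0.72 ± 2.01 and the kinase gene Map3k6 at 0.69 ± 0.69. Hif3a at -0.34 ± 0.48, the phosphatase gene Dusp1 at -0.31 ± 0.30 and the sodium channel subunit gene Scnn1g at -0.31 ± 0.59 were lowest. For radiation minus control, 21 of the 22 lay above 0, where 60.3% of all genes do, with a median of 0.66 against 0.08 over all genes. All radiation arrays lay above all control arrays for 6 of the 22, against 4.86% of all genes, among them Map3k6 at 2.52 ± 0.62. This list, like those below, was drawn up with earlier results of these data known. Its counts are therefore a description and no independent check on the 10 genes.

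Of 10 listed genes that glucocorticoids repress in inflammation, 6 were measured, and Tnf, Il6, Ccl2 and Nos2 did not pass the filter. In radiation minus control all 6 lay above 0, where 60.3% of all genes do, with a median of 0.42 against 0.08 over all genes. Il1b and Ccl5, each at 0.04, lay below that all-gene median. In combined minus simvastatin 3 lay above and 3 below, with the chemokine gene Cxcl1 at 0.64 ± 0.62 (SE) and the protease gene Mmp9 at -0.76 ± 1.17. None of the 6 passed in either comparison.

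Clock genes are a second setting for Per1. Of 15 listed besides it, 14 were measured, and 0 passed in any comparison. Nr1d1, a repressor of Arntl, was at 1.60 ± 0.68 (SE) in combined minus simvastatin, Dbp, an output gene, at 1.47 ± 0.90 and Per2, the partner of Per1, at 0.66 ± 0.82. The activator genes Npas2 and Arntl were lowest, at -1.01 ± 1.01 and -0.50 ± 0.90. Per2 in radiation minus control was at 2.05 ± 0.73 and Arntl at -1.36 ± 0.81, with Nr1d1 at 0.74 ± 0.61 and Dbp at 0.15 ± 0.80. Clock genes also differed between arrays of 1 label. On radiation 1 and radiation 2, in that order, Arntl was at 9.02 and 5.57, Npas2 at 7.37 and 4.94, and Dbp at 9.54 and 12.65. Nr1d1 differed less, at 8.60 and 9.15. Since no label gives the hour of sampling, hour cannot be told apart from group, or from other differences between arrays, for Per1. The same holds for the rest of the 10 genes, as corticosterone rises and falls daily, and the part of the hour was not tested.

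The metal and oxidant response genes are a second setting for Mt1 and Mt2. All 5 listed were measured, and in combined minus simvastatin they lay between -0.11 for Mtf1, the metal-sensing factor, and 0.12 for Hmox1, which breaks down haem, while Mt1 and Mt2 were at 0.86 and 1.06. All 5 lay above 0 in radiation minus control, where 60.3% of all genes do, with a median of 0.49 against 0.08 over all genes. Of these 5, 0 passed in either comparison. Immediate early genes are known to rise quickly with handling or stress. Of 11 measured, 4 lay above 0 in radiation minus control, where 60.3% of all genes do, with a median of -0.36. In combined minus simvastatin 6 of 11 lay above 0, where 49.1% of all genes do. They ran there from Btg2 at -0.40 ± 0.44 (SE) to Junb at 0.41 ± 0.37.

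Relatives of the 10 genes in the same gene families were followed as well. Of 10 listed 8 were measured, 0 passed in any comparison, and Tsc22d1, Tsc22d2, Tsc22d4, Fam107b, Sgk3 and Klf13 lay between -0.14 and 0.34 in combined minus simvastatin. Klf15, another glucocorticoid-induced Kruppel-like factor, was at 0.47 ± 0.46 (SE) there and at 1.70 ± 0.41 in radiation minus control. Its levels were 11.27, 10.86 and 10.66 on the combined arrays, 11.40, 10.96 and 10.94 on the radiation arrays, 10.70, 10.25 and 10.65 on the simvastatin arrays, and 8.38, 9.53 and 10.27 on the control arrays, and every radiation array exceeded every control array. Mt4, the metallothionein of squamous epithelium, ranged from 2.60 to 13.95 and was at 6.66 ± 3.68 in combined minus simvastatin. The 8 measured squamous markers of 10 listed averaged 3.26 to 12.69 on the combined arrays, 3.22 to 9.74 on the radiation arrays, 3.15 to 3.25 on the simvastatin arrays and 4.96 to 12.33 on the control arrays. Mt4 and Krt4, a squamous keratin gene, had their 6 lowest values on the same 6 arrays, and the part of that tissue in the Mt4 value was not tested.

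Markers of 14 cell and tissue types were set beside the 10 genes over 11 samples, as a description. The mean of the 10 genes had an r between -0.36 (T and NK cells) and 0.52 (neutrophils, 2 of 6 markers measured) with the mean of a marker list. Single genes went further: Klf9 had an r of -0.77 with T and NK cell markers (6 of 8 measured), 0.77 with alveolar type 1 markers (6 of 6) and 0.76 with alveolar type 2 markers (6 of 7), and Sgk1 had 0.75 with alveolar type 2 markers. With endothelial markers (7 of 7) the r was 0.75 for Errfi1, 0.72 for Per1 and -0.75 for Fkbp5. These endothelial markers averaged 11.89 to 12.50 on the combined arrays, 11.91 to 12.63 on the radiation arrays, 12.48 to 12.55 on the simvastatin arrays and 11.24 to 12.66 on the control arrays, and their part in the values of the 10 genes was not tested. Control 1 was the highest array for T and NK cell markers, at 10.94. It was the lowest for alveolar type 1 (12.13), alveolar type 2 (13.12) and endothelial markers (11.24). All of the 10 genes except Mt2 and Fkbp5 also had their lowest value on control 1. Neither r with the markers nor r between the genes was computed without that array. Without control 1 the median of the 10 genes in radiation minus control was 1.01 (1.29 with it).

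Among all other genes tested, the 5 with the highest r with the mean deviation of the 10 genes over 11 samples were Sema7a at 0.97, Map3k6 at 0.97, Nus1 at 0.97, Plxna2 at 0.96 and Pmvk at 0.95. Sema7a, a membrane-anchored semaphorin, had log2 levels of 10.60, 9.90 and 9.35 on the combined arrays, 10.86, 10.48 and 10.40 on the radiation arrays, 9.33, 10.36 and 9.25 on the simvastatin arrays, and 8.56, 9.04 and 9.60 on the control arrays. Like the mean of the 10 genes, it was highest on radiation 1 and lowest on control 1.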

How the data were processed

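Total RNA of whole mouse lung was hybridised to 12 Affymetrix arrays, which the authors deposited as log2 values for 45101 probe sets. MAS5 and GCRMA are named, per the submitters' processing notes, while no source used here gives their versions or roles. Array medians ran from 4.41 to 5.12 on the log2 scale and were left as deposited, with no pseudocount.

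From these values, 64 control probe sets were left out, and 34945 probe sets with 1 gene symbol were used, of which 34741 matched RefSeq by Entrez identifier, while 932 with several symbols were not used. A probe set was kept above a log2 level of 4.84 (the median of all values) on at least 3 of 12 arrays, which left 23469, and each of 11606 genes took its brightest kept probe set by mean. A mean per group was fitted to 11 samples (simvastatin 1 and 3 averaged) with lmFit and eBayes with a trend in limma 3.58.1 (R 4.3.3), with two-sided p-values adjusted by Benjamini and Hochberg over all genes at a threshold of 0.05. The procedure was tested on simulated data drawn as independent samples. These held no near-identical or outlying arrays, so the simulation does not cover such arrays. The number of arrays limits the precision.

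The genes, gene lists and tests were chosen with earlier results of these data known. Named besides the 10 genes are Nr3c1, Nr3c2, Hsd11b1 and Hsd11b2, of each list at most 3 genes with the largest positive and 3 with the largest negative difference in combined minus simvastatin, and the 5 genes most correlated with the mean of the 10. Genes named outside that rule (Tnf, Il6, Ccl2, Nos2, 6 relatives of the 10 genes, marker genes, Cdkn1a, Xist, Sftpc, Cdh5) are named for their place in a list or as checks. Alternatives covered scaling, filters, probe set choice, the variance model, array weights, a replicate block and left-out arrays.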

Additional observations from a re-analysis of the deposited data

Results flagged for a closer look

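For 3 of the 10 genes the radiation arrays and the combined arrays lay on opposite sides of their own references. All 3 combined arrays lay below the simvastatin mean, and all 3 radiation arrays lay above the control mean, for Sgk1, Klf9 and Errfi1. The difference between the 2 effects (combined minus simvastatin, less radiation minus control) was -0.94 on the log2 scale for Sgk1, -0.70 for Klf9 and -1.37 for Errfi1. A value below 0 was not particular to these 3 genes. Over all 10 genes the difference ran from -3.38 for Fam107a to -0.14 for Mt1, with Tsc22d3 at -1.93. Choosing genes that were high in radiation minus control lowers this difference beforehand. It was not tested on independent arrays, since radiation minus control was used to choose the genes. Of all 11606 genes 871 (7.5%) show this same pattern of arrays. Without simvastatin 2, combined minus simvastatin was at -0.11 for Sgk1, -0.03 for Klf9 and -0.07 for Errfi1, and combined arrays of Klf9 (14.69) and of Errfi1 (13.20 and 13.19) then lay above the mean of the remaining simvastatin arrays (14.69 and 14.57 for Klf9, 13.19 and 13.09 for Errfi1). The 5 other kept probe sets of Klf9 were at 0.01 to 0.52 in that comparison. Over all 11606 genes limma called 0 such differences at an adjusted p of 0.05, and 377 had an unadjusted p under 0.05.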

How the results depend on the processing

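Each of 56 results was recomputed under 23 other settings. In combined minus simvastatin, 0 of 11606 genes and 0 of the 10 genes passed under all of them. Leaving out combined 3, simvastatin 2 and control 3 together moved the median of the 10 genes there to 0.89, reversed Tsc22d3 to 0.55 and Per1 to -0.13, and gave 9 called genes in radiation minus control. Averaging the kept probe sets reversed Klf9 to 0.15. With 1 array left out at a time, the range was -0.17 to 0.87 for Fam107a, -0.35 to 0.30 for Tsc22d3 (at 0.08 without combined 3) and -0.084 to 0.21 for Per1, and genes called in radiation minus control ran from 0 to 1. Array weights, 0.159 for control 1 and 3.52 for control 2, gave 1203 of 11606 genes called in radiation minus control. In combined minus radiation they gave 1173 of 11606. Of the 10 genes, 6 were called in the first and 1 (Fam107a) in the second. The genes were chosen on radiation minus control, and combined minus radiation shares its radiation arrays, so these counts are no test of the 10 genes. With these weights Per1 was at -0.19 in radiation minus control. Median centring left 1 of the 10 above 0 in combined minus radiation and shifted the all-gene median to 0.36 in radiation minus control and -0.45 in combined minus radiation, so those values are relative to such shifts. For these changes the cause was not tested, beyond the fewer samples where arrays were left out. Same-numbered samples had correlations of -0.26 to 0.41 between their deviations (18 pairs, median 0.06), against -0.52 to 0.42 in 36 pairs of different numbers (median -0.04). The 3 pairs of combined with control were at 0.29 to 0.41, but in none of the 4 comparisons made were all 3 pairs above 0.1, so the numbers were not taken to pair samples. With a replicate block on 12 arrays, 0 genes passed in all 4 comparisons, and the median of the 10 genes in combined minus simvastatin was 0.23. With 2 or 3 samples a group, smaller differences than those errors show are not detectable.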
